A study of Bos taurus with 10 samples.

Results

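The 5 calves exposed to hypobaric hypoxia, of the 10 calves in the series, were described here by how far they differed from each other. All 10 were male Holstein calves that entered the study between postnatal days 3 and 7, and tissue of the right ventricle was taken after death 14 days later. Hypoxia calves (titled PH calf, numbers 173, 178, 192, 199 and 204) lived at a reduced pressure equivalent to 4570 m, and control calves (numbers 176, 177, 180, 181 and 195) at ambient pressure at 1525 m. Total RNA of each calf was read on 1 Affymetrix Bovine array, on which several short probes, together a probe set, measure 1 transcript. Each of 9155 named genes was represented by its brightest probe set, and its spread was the standard deviation (SD) of its log2 level over the 5 hypoxia calves, with the SD over the 5 control calves as reference. An SD of 1 means that calves of a group typically lay 2-fold from their group's mean. Mean levels of the groups were not compared.

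Low oxygen constricts the small arteries of the lung, and the right ventricle, which pumps against them, meets a higher pressure load. A ventricle under such load is known to enlarge its muscle cells, to switch on genes of fetal heart muscle and natriuretic peptides, to lay down matrix and to recruit inflammatory cells. Animals of one herd can differ widely in how strongly their pulmonary arteries respond to altitude, and cattle are a textbook example of this. Neither pressures nor heart weights of single calves are among the labels used here, so the differences between calves were described from expression alone.

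All 5 hypoxia libraries carried heart muscle RNA. The mean level of 11 measured cardiomyocyte markers lay between 13.5 and 13.8 in every hypoxia calf, and their median SD was 0.085. TNNC1, the calcium-binding subunit of cardiac troponin, read 14.18 in calf 173, 14.18 in calf 178, 14.19 in calf 192, 14.16 in calf 199 and 14.16 in calf 204. Its SD of 0.01 was the smallest among genes with a mean of at least 8. MYH7, the slow myosin heavy chain of the ventricle, had an SD of 0.11 and ranged from 14.08 in calf 199 to 14.36 in calf 204. The levels of TNNC1 and MYH7 lie near the highest value on any array, 14.36, where RMA can compress differences. A dimmer probe set of MYH7 had an SD of 0.221. It was highest in calf 199, at 9.92 against 9.34 to 9.71 in the other hypoxia calves. Array medians ran from 5.51 to 5.54 in hypoxia calves. Differences between the 3′ and 5′ probe sets of the actin control, a measure of RNA integrity, ran from 1.51 in calf 204 to 2.55 in calf 178. That of GAPDH ran from 0.15 in calf 192 to 0.386 in calf 178, and the spiked hybridisation controls averaged 10.65 in calf 178 and 10.92 to 11.02 in the others. That of EF1a ran from -1.93 in calf 199 to -1.62 in calves 178 and 204, and that of cyclophilin from 1.40 in calf 178 to 1.67 in calf 199. Calf 178 was thus at the edge of the group in each of these 5 measures of RNA and hybridisation. In that of EF1a it was level with calf 204. Control calves had larger actin differences than any hypoxia calf, from 2.81 in calf 180 to 4.35 in calf 177. Their GAPDH differences ran from 0.066 in calf 180 to 0.603 in calf 177. The part of these measures in the results below, control SDs included, was not tested. In bulk tissue, fewer cells of a type and less RNA per cell cannot be told apart.

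Most genes varied little between hypoxia calves, and the median SD was close to that of controls. The median SD over the 9155 genes was 0.193 in hypoxia calves and 0.204 in control calves, a ratio of 0.943 (jackknife SE 0.0946 over 5 hypoxia calves). An SD of at least 0.5 was reached by 595 genes in hypoxia calves (6.5% of those measured) and by 510 in controls (5.57%). Both groups shared 195 of these genes, which is 32.8% of the hypoxia list and 38.2% of the control list. The shares of 6.5% and 5.57% are the reference for all counts of list members at this SD below. An SD of at least 1 was reached by 84 genes (0.918%) in hypoxia calves and 72 (0.786%) in controls, with 13 in common. The SD was larger in hypoxia calves for 46.5% of all genes. As 1 value per calf, the median over genes of the distance from the other 4 calves of the group was 0.159 ± 0.0247 (SD, n = 5) in hypoxia calves and 0.167 ± 0.0212 (SD, n = 5) in controls. This difference of -0.008 lay within the spread between calves (exact two-sided permutation test, p = 0.603, where the smallest possible is 0.00794). Calf 178 had the largest value of the hypoxia group, 0.186, followed by calf 199 with 0.179 and calf 204 with 0.164. Calves 173 and 192 lay closest to their group, with 0.140 and 0.128.

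**Figure D1:**
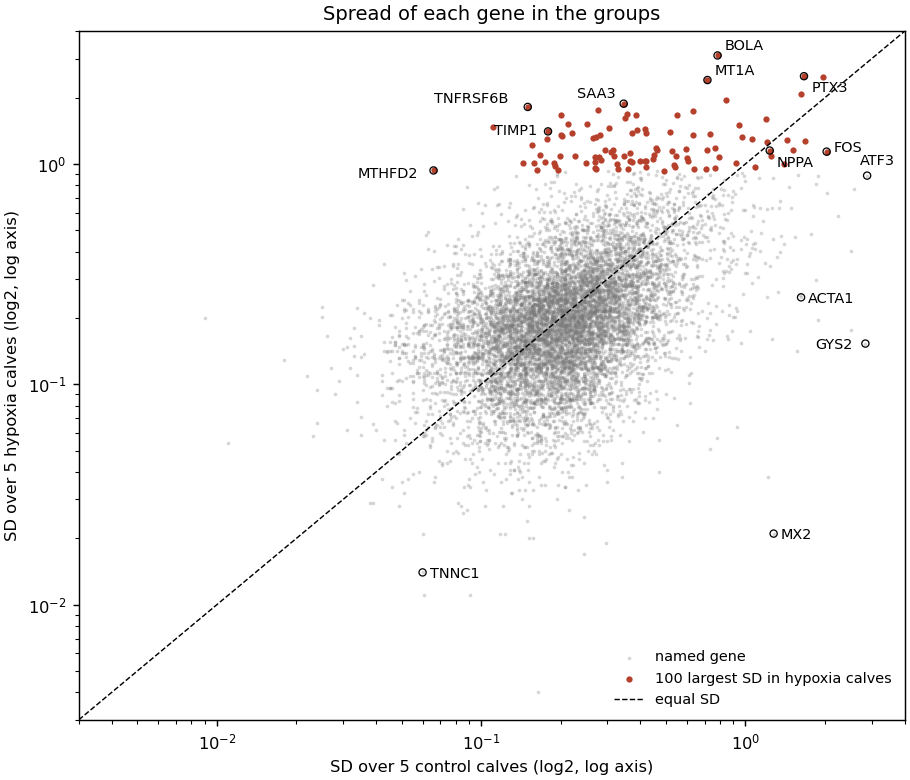
Each point is 1 of 9155 named genes, with its SD over 5 control calves on the horizontal and over 5 hypoxia calves on the vertical axis, both log2 SDs on log axes. Red points are the 100 genes with the largest hypoxia SD, the dashed line marks equal SDs, and circled genes are named in the text. BOLA and MT1A lie high with moderate control SDs, while GYS2, ACTA1 and MX2 lie far below the line.

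Spread depended on level, but not in 1 direction. The median SD rose from 0.127 at levels of 2 to 3 to 0.22 at levels of 5 to 6. From there it stayed near 0.21 up to a level of 10 and fell to 0.14 at levels of 12 to 13 and 0.091 at 13 to 14. Across genes, which are not independent replicates, Spearman's rho between level and SD was 0.392 among the 3236 genes with a mean under 6 and -0.129 among the 5919 with a mean of at least 6. The value over all genes, 0.094, mixes both arms. Genes with an SD of at least 0.5 made up 10.4% of those at levels of 4 to 5, 10.1% at levels of 6 to 7, 4.11% at levels of 10 to 11 and 0% of the 82 genes at levels of 13 to 14. Control calves followed the same course, with median SDs of 0.15, 0.232 and 0.085 at levels of 2 to 3, 5 to 6 and 13 to 14. RMA can compress differences at both ends of the scale, so a small SD there need not mean a small difference in RNA.

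**Figure D2:**
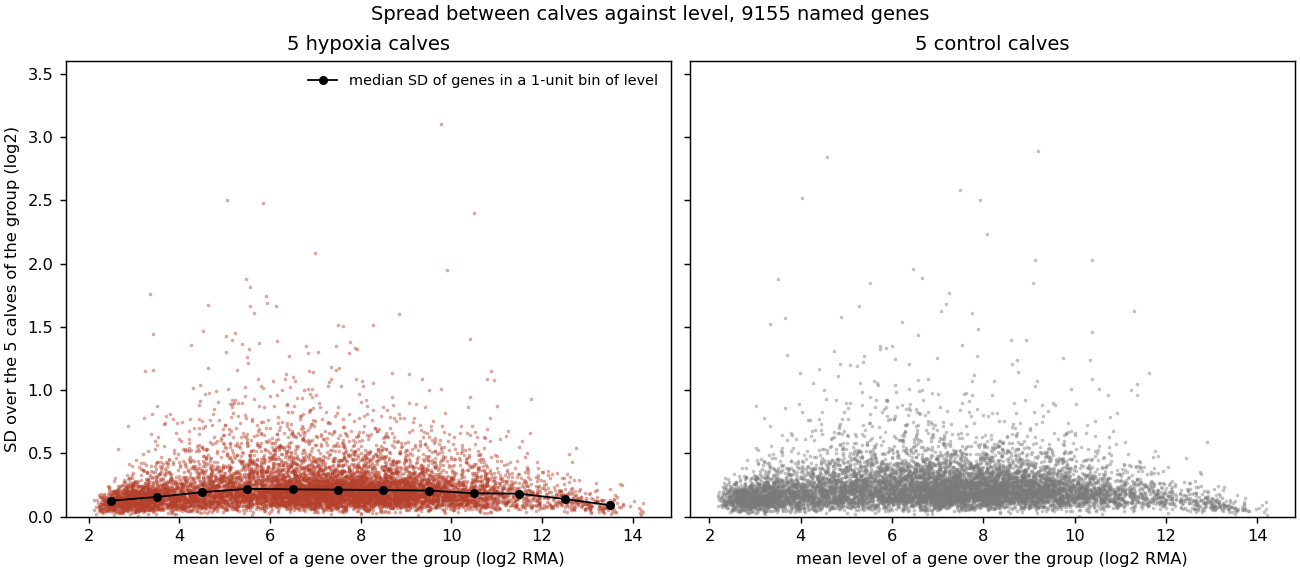
Points are 9155 named genes, with the mean log2 level over the group on the horizontal axis and the SD over its 5 calves (log2) on the vertical axis, for hypoxia calves on the left and control calves on the right. The black line joins the median SD of hypoxia calves in bins 1 unit wide, which rises to 0.22 at levels of 5 to 6 and falls to 0.091 at levels of 13 to 14.

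The 100 genes with the largest SD in hypoxia calves are described in the rest of the text. The 100th had an SD of 0.931 and the next one an SD of 0.926, so the boundary separates nothing. Their highest and lowest calf differed by at least 4.02-fold, and their median SD was 1.15. In control calves, whose values did not enter the choice, the same genes had a median SD of 0.387, against 0.204 for all genes, and 38 of them had a control SD of at least 0.5 (5.57% of all genes). Among the 100, 17 were also among the 100 most variable in controls. These 17 included PTX3, PRSS2, BOLA-N, SPP1, NPPA, FOS, HBB, LBP and APOD.

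The calves did not contribute equally. Calf 199 was farthest from the group's median in 40 of the 100 genes (26.6% of all genes), above it in 34 of these. Calf 178 was farthest in 30 (27.4%), above in 25, and calf 204 in 17 (19.8%), below in 14. Calf 173 was farthest in 10 (14.5%) and calf 192 in 3 (11.8%). Calves 178 and 199 were together the 2 highest in 55 of the 100 genes, against 16.4% of all genes. Calf 204 was the lowest in 47 of the 100, against 22.9% of all genes. Over all genes, calf 199 was the highest of the 5 in 27.6% and calf 178 in 19.6%.

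Genes were next grouped by the widest gap in their 5 ordered values, which separates the calves above it from those below. The gap lay below calves 178 and 199 in 23 of the 100 genes, below calf 199 alone in 22 and below calf 178 alone in 10. In another 9 genes calves 173, 178 and 199 lay above it, and in 7 genes all calves but 204. The mean of the 23 genes that set calves 178 and 199 apart was 8.17 and 8.20 in these calves and 5.68 to 5.93 in the other 3. That hypoxia calves fall into line here follows from how the genes were grouped. In control calves the same 23 genes did not move as a block: the SD of their mean was 0.246 of the typical SD of a member, where independent genes would give 0.209. The 22 genes of calf 199 gave 0.252 against 0.213, and the 10 of calf 178 gave 0.473 against 0.316.

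**Figure D3:**
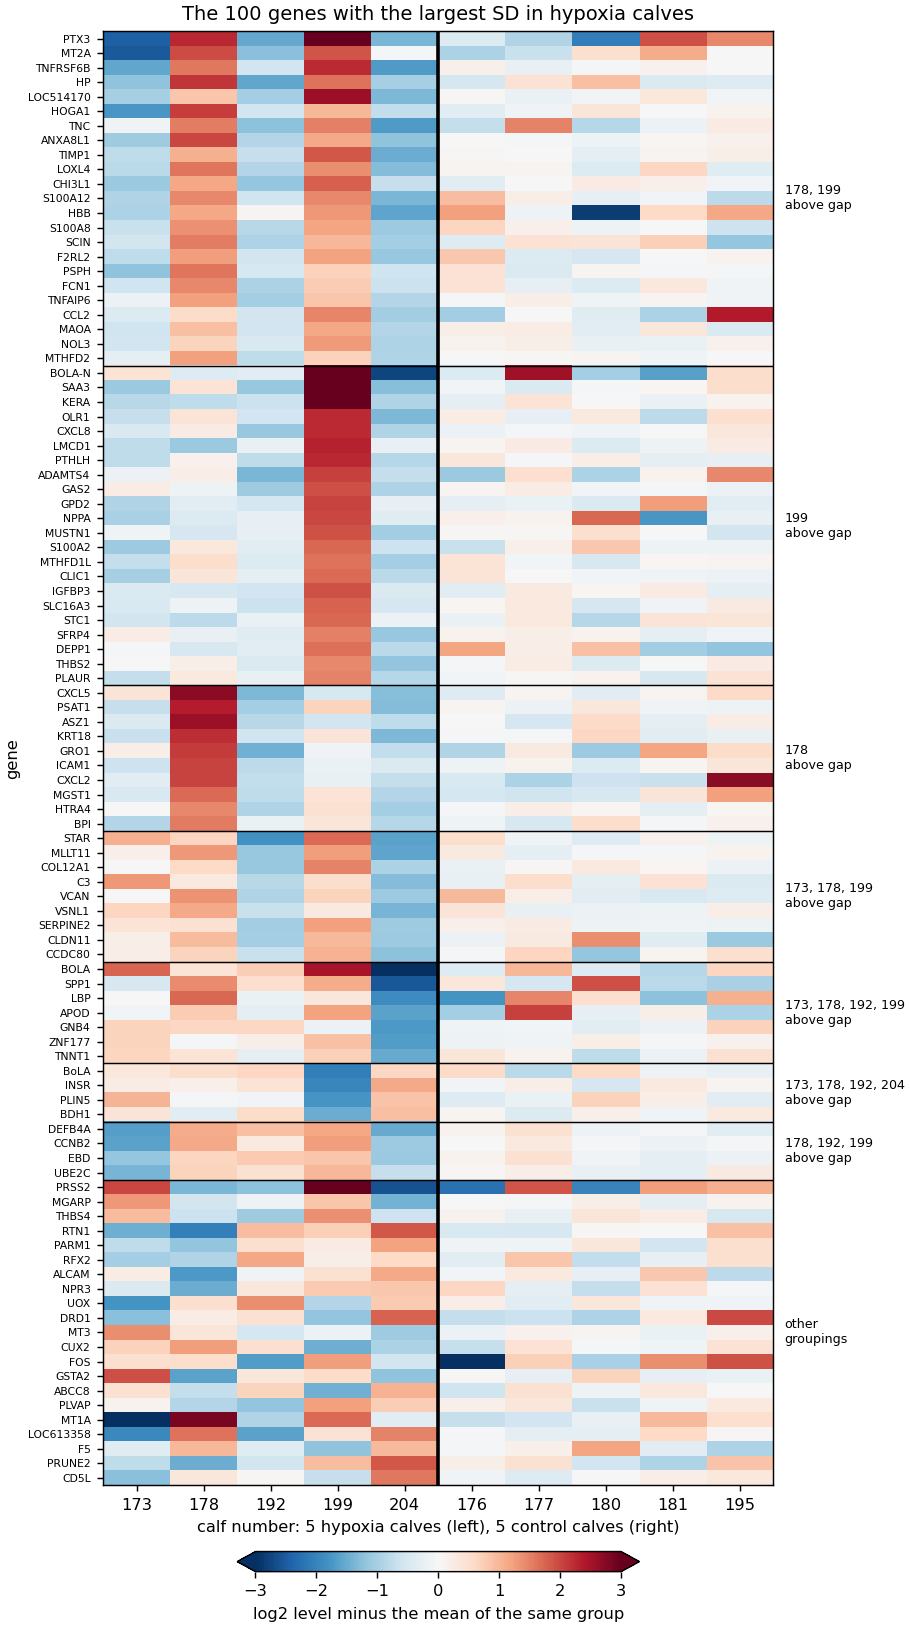
Rows are the 100 genes with the largest SD in hypoxia calves, grouped by the calves above the widest gap (named at the right), and columns are the 5 hypoxia and 5 control calves. Colour gives the log2 level minus the mean of the same group, from -3 to 3, so means of the groups are not compared. The top 3 blocks of 23, 22 and 10 genes are red in calves 178 and 199, in 199 and in 178, with the same genes in control calves beside them.

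Many inflammatory genes were high in calves 178 and 199. Of 27 measured acute phase and cytokine genes, 15 had an SD of at least 0.5 in hypoxia calves (6.5% of all genes). Of the 27, 8 did in controls (5.57% of all genes), and 11 were among the 100. Their median SD was 0.552 in hypoxia calves and 0.346 in controls, against 0.193 and 0.204 for all genes. Calves 178 and 199 were the 2 highest in 15 of the 27 (16.4% of all genes). The list mean was 6.08 in calf 178 and 6.10 in calf 199, but 5.05, 4.91 and 4.83 in calves 173, 192 and 204.

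PTX3, a pentraxin secreted by vessels and white cells in inflammation, read 2.59 in calf 173, 7.32 in calf 178, 3.51 in calf 192, 8.14 in calf 199 and 3.67 in calf 204. Its SD was 2.50, the second largest, and its range 46.9-fold. Calves 178 and 199 were high and the other 3 near the floor, but control calves also ranged from 3.2 to 7.2. SAA3, a serum amyloid A made in inflamed tissue, read 8.59 in calf 199, 5.89 in calf 178 and 4.20 to 4.35 in the others. HP, which encodes the haemoglobin-binding acute phase protein haptoglobin, read 8.07 in calf 178, 7.54 in calf 199 and 4.36 to 4.92 in the others. Their control SDs were 0.35 and 0.63, against 1.88 and 1.74 in hypoxia calves.

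The neutrophil-attracting chemokines divided these 2 calves. CXCL5 read 7.35 in calf 178, 5.02 in calf 173, 4.17 in calf 199, 3.36 in calf 204 and 3.29 in calf 192. CXCL8 instead read 6.50 in calf 199, 4.50 in calf 178 and 3.14 to 3.81 in the other 3. CXCL5, CXCL2 and GRO1 (a symbol now listed as CXCL1) were set apart by calf 178 alone, and CXCL8 with SAA3 by calf 199 alone. CHI3L1, a chitinase-like protein of macrophages and neutrophils, was high in both, at 6.90 in calf 178 and 7.54 in calf 199, against 4.60 to 5.07 elsewhere. TNFRSF6B, a decoy receptor that binds FAS ligand, was high in both too, with 7.15 and 7.80 against 3.86 to 4.99. Its control SD was only 0.15, a ratio among the 5 largest.

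Macrophage markers moved partly with this pattern, and other white cell markers less so or the other way. Of 13 macrophage markers, 7 had an SD of at least 0.5 in hypoxia calves (6.5% of all genes) and 3 in controls (5.57%). In 11 of the 13, calves 178 and 199 were the 2 highest (16.4% of all genes). Their list mean was 8.05 in calf 178, 7.81 in calf 199 and 7.00 to 7.49 in the others, and 6.54 to 7.55 in controls. CD14, a receptor for bacterial lipopolysaccharide, read 9.53 and 9.39 in these 2 calves and 7.55 to 8.28 in the others. The macrophage scavenger protein CD5L went another way, with 7.64 in calf 204 and 4.82 to 6.40 elsewhere. Of 14 neutrophil markers, S100A8 and S100A12 were among the 100 and 3 reached an SD of 0.5. S100A12 read 8.89 and 8.90 in calves 178 and 199 and 6.08 to 6.85 in the others, while LTF, the granule protein lactoferrin, was high in calf 178 alone (6.01, against 4.28 to 4.51). The part of white cells in the spread of inflammatory genes was not tested. Without calves 178 and 199, which leaves 3 calves, 5 of the 27 inflammatory genes had an SD of at least 0.5 and their median SD was 0.228.

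**Figure D4:**
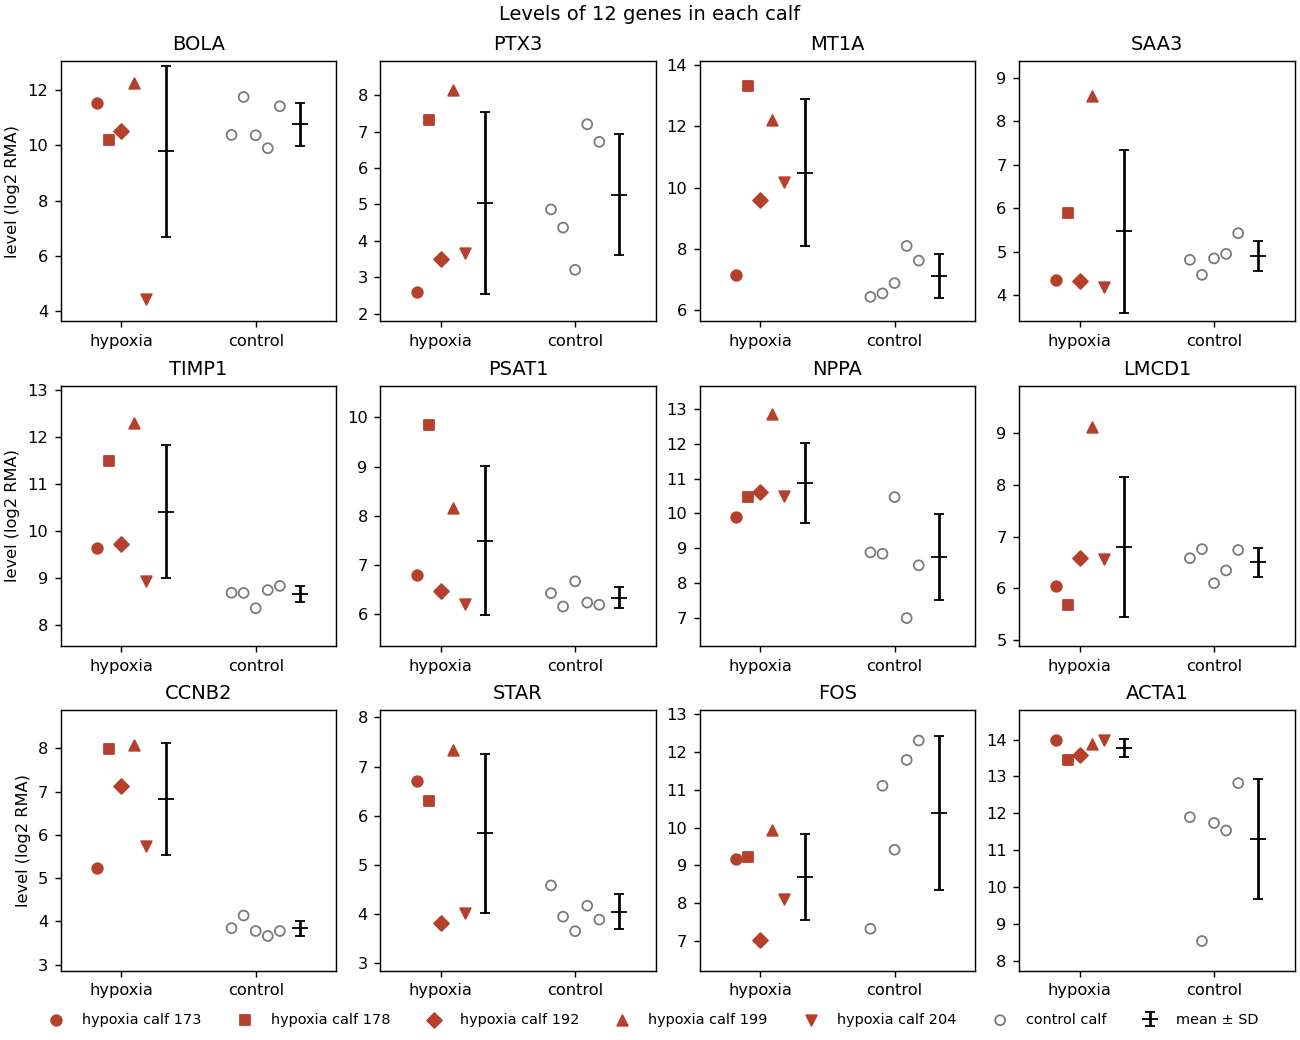
Log2 RMA levels of 12 genes in each calf, with filled symbols for the 5 hypoxia calves, open circles for the 5 control calves and black bars for the mean ± SD of each group. Calves 178 and 199 are high in PTX3, MT1A and TIMP1, calf 199 alone in NPPA and LMCD1, and calf 204 is low in BOLA, while ACTA1 and FOS spread more in control calves. The vertical axis differs between genes and does not start at 0.

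Metallothioneins, small proteins that bind zinc and copper and are induced by metals, glucocorticoids and inflammation held 3 of the 30 most variable genes. MT1A read 7.14 in calf 173, 13.33 in calf 178, 9.60 in calf 192, 12.20 in calf 199 and 10.18 in calf 204. This is a 72.9-fold range and an SD of 2.40, against 0.72 in controls. MT2A followed the same order of calves, with 7.39, 11.86, 8.66, 11.78 and 9.85. In both genes calf 173 was lowest and calves 178 and 199 highest, with 204 and 192 between them. LOC613358, listed with the synonym MT1E, read 7.56 in calf 178, 7.41 in calf 204, 6.38 in calf 199 and 4.33 and 4.0 in calves 192 and 173. MT3 went its own way, with 8.0 in calf 173 and 5.54 to 6.97 in the others. Metallothionein sequences are alike, so their probe sets may read each other's transcripts. Across the 18 measured genes of metallothioneins and oxidant defence, 8 reached an SD of 0.5 in hypoxia calves and 5 in controls, but the list's median SD of 0.264 was below the 0.299 of controls. SRXN1, which repairs oxidised peroxiredoxins, read 6.25, 5.98 and 5.80 in calves 178, 204 and 199 and 4.80 and 4.12 in calves 173 and 192.

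More matrix genes had a large SD in hypoxia calves than in controls. The count fell when calves 178 and 199 were left out, and no single member passed the test of spread. Of 49 measured genes of the extracellular matrix, 24 had an SD of at least 0.5 in hypoxia calves (6.5% of all genes). In controls 14 did (5.57% of all genes), and median SDs were 0.498 in hypoxia calves and 0.347 in controls. Calf 199 had the highest list mean, 9.33, and calf 204 the lowest, 8.30, and calf 199 was the highest calf in 27 of the 49 (27.6% of all genes). TIMP1, an inhibitor of matrix metalloproteinases, read 9.65 in calf 173, 11.48 in calf 178, 9.72 in calf 192, 12.28 in calf 199 and 8.93 in calf 204. Its SD was 1.40 in hypoxia calves and 0.18 in controls (limma on absolute deviations, adjusted p = 0.152). TNC, a matrix glycoprotein of injured and growing tissue, read 7.50, 9.14, 6.37, 9.13 and 5.92 in calves 173, 178, 192, 199 and 204. LOXL4, a lysyl oxidase that cross-links collagen, read 9.36 and 9.17 in calves 178 and 199 and 6.46 to 6.95 in the others.

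SPP1, the secreted matrix protein osteopontin, had another pattern. It read 8.36 in calf 173, 10.27 in calf 178, 9.35 in calf 192, 9.96 in calf 199 and 6.30 in calf 204. Here calf 204 lay apart at the bottom, and the SD of 1.60 compared with 1.20 in controls. By the root mean square difference of scaled profiles over 5 calves, the genes among the 100 most like SPP1 were HBB (0.307), APOD (0.348), LBP (0.378), DEFB4A (0.472) and EBD (0.492). Of the 9 collagen genes on the matrix list, COL12A1 had an SD of 1.09, COL5A2 one of 0.53 and COL1A1 one of 0.51. The other 6 had SDs from 0.08 for COL4A1 to 0.42 for COL15A1, with 0.29 for COL3A1. Of 16 fibroblast markers 6 reached an SD of 0.5, against 3 in controls, and their list mean ran from 9.32 in calf 204 to 9.97 in calf 199. Without calf 199 the matrix count was 16 of 49 and without calf 178 it was 20. Without both, which leaves 3 calves, it was 13, with a median SD of 0.351, beside 14 and 0.347 in all 5 controls. These 2 calves were picked after the data were seen and lay farthest from their group over all genes. Leaving them out therefore tends to lower SDs, and no control calf was left out beside them. The difference between the groups' lists was not tested.

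Calf 199 lay apart in NPPA and in other genes grouped by that pattern. Of 14 measured fetal cardiac and wall stress genes, it was the highest in 6 (27.6% of all genes) and farthest from the median in 7 (26.6%). An SD of at least 0.5 was reached by 6 of these 14 in hypoxia calves and by 7 in controls, and by 2 without calf 199. NPPA, the precursor of atrial natriuretic peptide, read 9.89 in calf 173, 10.47 in calf 178, 10.62 in calf 192, 12.86 in calf 199 and 10.51 in calf 204. Calf 199 thus lay apart from the other 4, but NPPA spread as far in controls, with an SD of 1.24 against 1.15. LMCD1, a LIM domain protein of heart and skeletal muscle, read 9.12 in calf 199 and 5.69 to 6.59 in the others, with an SD of 1.35 against 0.28 in controls. KERA, a proteoglycan best known from the cornea, read 6.48 in calf 199 and 2.43 to 2.71, near the array's floor, in the other 4. IGFBP3, which binds insulin-like growth factors, read 9.96 in calf 199 and 7.46 to 7.61 in the others. The genes among the 100 most like NPPA over the 5 calves were GPD2 (0.12), KERA (0.208), STC1 (0.244), IGFBP3 (0.255) and LMCD1 (0.26). Of the atrial, conduction and great vessel markers, MYL4, the atrial light chain, read 8.88 in calf 199 and 6.47 to 7.50 in the others, and SLN 5.70 against 4.45 to 4.94. The mean of the 5 measured markers was 9.42 in calf 199 and 8.13 to 8.39 in the other 4, and 7.07 to 8.18 in controls. The part of atrial tissue in these results was not tested.

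Targets of the hypoxia-inducible factor, which activates genes of glycolysis, vessel growth and iron uptake when oxygen is short, were also mostly highest in calf 199. It was the highest in 21 of 28 measured targets, against 27.6% of all genes, and farthest from the median in 18, against 26.6%. Their list mean was 8.94 in calf 199 and 8.20, 8.19, 8.19 and 8.22 in calves 173, 178, 192 and 204. Of the 28, 10 reached an SD of 0.5 in hypoxia calves and 6 in controls. Without calf 199 the count fell to 3 and the SD of the list mean from 0.329 to 0.014. SLC2A1, the glucose transporter GLUT1, read 7.89 in calf 199 and 5.62 to 6.66 in the others, with an SD of 0.88 against 0.14 in controls. PLOD2, a collagen lysyl hydroxylase, read 9.58 in calf 199 and 7.60 to 8.81 in the others. ERO1A, an oxidase of the endoplasmic reticulum, read 5.12 against 3.23 to 3.46. SLC16A3, the lactate exporter MCT4 of the glycolysis list, read 8.02 against 5.62 to 6.10. LDHA, a target that makes lactate, ranged only from 12.97 to 13.45. GAPDH, an enzyme of the glycolysis list, ranged from 13.46 to 13.75. VEGFA, the main growth factor of vessels, was not highest in calf 199 but in calf 204, at 11.27 against 10.37 to 10.72.

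Enzymes of serine synthesis and of the mitochondrial folate cycle, which turn a glycolytic intermediate into serine and then into one-carbon units, also moved with calves 178 and 199. This list was put together after 4 of its members were seen among the 100, so its counts are descriptions only. Of 11 measured enzymes 6 had an SD of at least 0.5 in hypoxia calves (6.5% of all genes) and 0 in controls (5.57%). PSAT1, which makes phosphoserine, read 6.80 in calf 173, 9.85 in calf 178, 6.47 in calf 192, 8.15 in calf 199 and 6.20 in calf 204. PHGDH, the first enzyme of the path, kept that order, with 6.43, 8.16, 6.39, 7.21 and 6.13. PSPH, the last, read 7.95 in calf 178, 7.05 in calf 199 and 5.14 to 5.88 in the others. MTHFD2 of the mitochondrial folate cycle read 6.89 in calf 178, 6.35 in calf 199 and 4.75 to 5.36 in the others, and its control SD was 0.07. MTHFD1L, the next enzyme there, was highest in calf 199 (7.37), followed by calf 178 (6.26). SHMT1, the cytosolic serine hydroxymethyltransferase, ran the other way, with 4.87 in calf 199, 5.36 in calf 178 and 6.08 to 6.35 in the rest. HOGA1, a mitochondrial enzyme of hydroxyproline breakdown, was likewise high in calf 178 (10.34) and calf 199 (9.26), against 6.52 to 7.69. Without calves 178 and 199, 0 of the 11 enzymes had an SD of 0.5.

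Cell cycle genes divided the calves differently, with calf 192 beside 178 and, in the list mean and several members, calf 199. CCNB2, a cyclin of mitotic entry, read 5.24 in calf 173, 7.98 in calf 178, 7.14 in calf 192, 8.08 in calf 199 and 5.75 in calf 204. UBE2C, which helps to degrade cyclins, read 5.51, 7.58, 7.37, 7.91 and 6.22, and BIRC5, known as survivin, 5.32, 7.17, 6.91, 6.94 and 5.50. In all 3 genes calves 173 and 204 were the lowest. BUB1 instead read 4.98 in calf 178, 4.745 in calf 192 and 3.31 to 3.66 in the others, calf 199 among them. TYMS was lowest in calf 199, at 6.73. Calf 178 was the highest in 19 of the 48 measured cell cycle genes (19.6% of all genes) and calf 199 in 7 (27.6%). Among 48 cell cycle genes on the array, 16 had an SD of at least 0.5 in hypoxia calves (6.5% of all genes). In controls 4 did (5.57% of all genes), and median SDs were 0.36 in hypoxia calves and 0.227 in controls. The list mean was 6.45 in calf 178, 6.44 in calf 192, 6.25 in calf 199, 5.85 in calf 204 and 5.80 in calf 173. With calves 178 and 199 left out, 17 of the 48 had an SD of at least 0.5. The defensins DEFB4A and EBD, antimicrobial peptides of epithelia, divided the calves as CCNB2, UBE2C and BIRC5 did. Others measured, DEFB10, TAP and LAP, did not. Their hypoxia SDs were 0.085, 0.134 and 0.229, at mean levels of 3.155, 3.977 and 3.692. DEFB4A read 6.36, 6.13 and 6.40 in calves 178, 192 and 199 and 3.58 and 3.72 in calves 173 and 204. Its difference in spread had one of the smallest adjusted p values of the test (limma on absolute deviations, adjusted p = 0.0917).

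Calf 173 joined calves 178 and 199 in 9 genes. STAR, which carries cholesterol into mitochondria for steroid synthesis, read 6.71 in calf 173, 6.30 in calf 178, 3.82 in calf 192, 7.34 in calf 199 and 4.03 in calf 204. Its control SD was 0.35 against 1.61 in hypoxia calves. MLLT11 read 8.03, 9.18, 6.72, 9.12 and 6.29 in the same order of calves. The complement component C3, the proteoglycan VCAN, the collagen COL12A1 and the protease inhibitor SERPINE2 were in this group. MGARP, a mitochondrial protein of steroid-producing cells, was highest in calf 173 (8.66), with 8.17 in calf 199 and 5.92 to 7.18 in the others.

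The gene with the largest SD was BOLA, a symbol of the bovine major histocompatibility complex, whose proteins present peptides to T cells. The reference table holds no entry for it, so its class is not given here. It read 11.53 in calf 173, 10.19 in calf 178, 10.52 in calf 192, 12.25 in calf 199 and 4.42 in calf 204, an SD of 3.11 and a 228-fold range. Calf 204 lay far below the other 4, and controls ranged from 9.90 to 11.75. BOLA-N, another symbol of the complex with no entry, read 10.04 in calf 199, 4.24 in calf 204 and 6.60 to 7.40 in the rest of the group, and spread nearly as far in controls (SD 1.63 against 2.08). BoLA, a separate gene in the annotation, was low in calf 199 alone, at 5.44 against 7.84 to 8.14. Class II genes differed less: BOLA-DQA2 ran from 8.69 to 10.06, and BOLA-DRA, chosen after its values were seen, had an SD of 0.145 against 0.153 in controls. Probe sets of 1 class II gene disagreed. The brightest of 5 for BOLA-DQB1 ran from 9.57 to 10.81 in hypoxia calves, while another read 7.46 and 7.34 in calves 178 and 192 and 3.05 to 4.12 in the other 3. Histocompatibility genes differ in sequence between animals and resemble each other, so a probe set can miss an allele or read a neighbour, and these values are uncertain as levels of 1 gene.

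Of the 100 genes, ZNF177, a zinc finger gene, was most like BOLA over the 5 calves (0.107), with 5.16 in calf 204 and 6.77 to 7.71 in the others. TNNT1, the slow skeletal troponin T, followed (0.284), with 10.24 in calf 204 and 11.49 to 12.48 in the others. PRSS2, a trypsin gene with an SD of 2.48, divided the calves otherwise: it read 9.07 in calf 199, 7.86 in calf 173, 4.61 in calf 192, 4.48 in calf 178 and 3.23 in calf 204. Its control SD was 1.96.

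Some genes were low where others were high. RTN1, a reticulon of the endoplasmic reticulum, read 4.09 in calf 178, 4.67 in calf 173, 6.85 in calf 199, 7.04 in calf 192 and 7.99 in calf 204. GSTA2, a glutathione transferase, read 3.43 in calf 178 and 3.81 in calf 204 against 5.36 to 6.96 in the others. In calf 199 the insulin receptor INSR read 5.50, against 7.61 to 8.59. PLIN5, a lipid droplet protein that couples fat stores to mitochondria, read 4.74 in calf 199 and 6.42 to 7.52 in the others. ABCC8, a subunit of the ATP-sensitive potassium channel, was also lowest there, at 6.61 against 7.34 to 9.09. Fatty acid oxidation genes as a list had their lowest mean in calf 199, 9.09 against 9.26 to 9.51, and calf 199 was farthest from the median in 14 of 34 (26.6% of all genes). Of these 34 genes 3 reached an SD of 0.5 in hypoxia calves and 4 in controls.

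Other genes had a small SD in hypoxia calves and a large one in controls. ACTA1, the skeletal actin that fetal and loaded heart muscle uses, read 13.99 in calf 173, 13.46 in calf 178, 13.57 in calf 192, 13.87 in calf 199 and 13.99 in calf 204. Its SD was 0.25, against 1.62 in controls, where calf 177 read 8.54 and the others 11.53 to 12.82. GYS2, the liver glycogen synthase, read 2.03 to 2.45 in hypoxia calves but 8.06 and 7.30 in control calves 176 and 181 and 2.41 to 2.66 in the remaining controls. In hypoxia calves ACTA1 lay near the highest value on any array, 14.36, and GYS2 near the lowest, 1.78. RMA can compress differences there, so their small hypoxia SDs need not mean small differences in RNA. GYS2 was the only probe set of 24016 (0.00416%) that passed the test of spread (limma on absolute deviations, adjusted p = 0.0223, SDs of 0.15 and 2.84). At an unadjusted p of 0.05 the test marked 2074 probe sets, 882 with more spread in hypoxia calves and 1192 with less. Its count of calls was 0 without control calf 176, and 11, 10, 6 and 5 without control calves 195, 177, 180 and 181. Without hypoxia calves 173, 192, 204, 199 and 178 it was 50, 48, 21, 18 and 14. The direction of the calls changed with the group that lost a calf. With a hypoxia calf left out most had more spread in hypoxia calves, 49 of the 50 without calf 173. With a control calf left out most had less, all 11 without calf 195.

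Interferon-stimulated genes, which respond to virus infection, had the largest such difference in median SD among the 35 lists. Of 28 measured, 2 had an SD of at least 0.5 in hypoxia calves and 18 in controls, with median SDs of 0.243 and 0.834. MX1, an antiviral GTPase, ran from 6.59 to 7.80 in hypoxia calves and from 5.86 to 7.48 in 4 controls, with 10.20 in control calf 180. IFI6 read 11.96 in that calf, 6.29 to 7.64 in the remaining controls and 7.09 to 8.32 in hypoxia calves. Without control calf 180 the control count was 7 and the control median SD 0.26. No member passed the test of spread (smallest adjusted p = 0.469 by limma on absolute deviations).

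Immediate early genes, transcription factors induced within minutes of a stimulus, spread widely in both groups. Of 20 measured, 10 had an SD of at least 0.5 in hypoxia calves and 16 in controls, with median SDs of 0.567 and 0.942. FOS read 9.17 in calf 173, 9.22 in calf 178, 7.02 in calf 192, 9.94 in calf 199 and 8.12 in calf 204, an SD of 1.14 against 2.03 in controls. ATF3 ran from 7.52 to 9.75 in hypoxia calves and from 5.69 to 12.61 in controls. Calf 199 was the highest hypoxia calf in 16 of the 20 (27.6% of all genes). Without calf 199 the hypoxia count was 6. Among 12 clock and glucocorticoid genes 7 reached an SD of 0.5, against 5 in controls. PER2, a core clock gene, read 5.50 in calf 178 and 6.94 to 7.77 in the others.

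Genes of oxidative phosphorylation, the proteasome and the ribosome varied little between hypoxia calves, but they lay at levels where few genes vary much. Other lists of energy supply varied more. An SD of 0.5 was reached in hypoxia calves by 5 of 26 glycolysis genes and 3 of 34 of fatty acid oxidation. Their median SDs were 0.242 and 0.265, against 0.204 and 0.207 in controls. None of 74 measured genes of oxidative phosphorylation and none of 26 of the proteasome had an SD of 0.5 in either group. The median SDs of these lists in hypoxia calves were 0.1 and 0.145, and their median levels 12.533 and 10.355. Of all genes at levels of 12 to 13, 1.27% reached an SD of 0.5 in hypoxia calves, with a median SD of 0.14. At levels of 10 to 11, 4.11% did, with a median SD of 0.185. The part of level in these small SDs was not tested. NDUFS8, the respiratory chain gene with the largest SD (0.27), ran from 11.16 in calf 178 to 11.76 in calf 173, and calf 178 was farthest from the median in 30 of the 74 (27.4% of all genes). Of 55 ribosomal protein genes, with a median level of 12.896, 1 reached 0.5. This was RPL3, with 12.30 in calf 178 and 10.92 to 11.78 in the others. ANKRD1, a stretch-responsive nuclear protein of heart muscle, had an SD of 0.13, within a range of 13.82 to 14.15. That range lies near the highest value on any array, 14.36. A dimmer probe set of ANKRD1 had an SD of 0.321 in hypoxia calves and 0.183 in controls. It ran from 12.197 in calf 173 to 13.005 in calf 204.

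**Figure D5:**
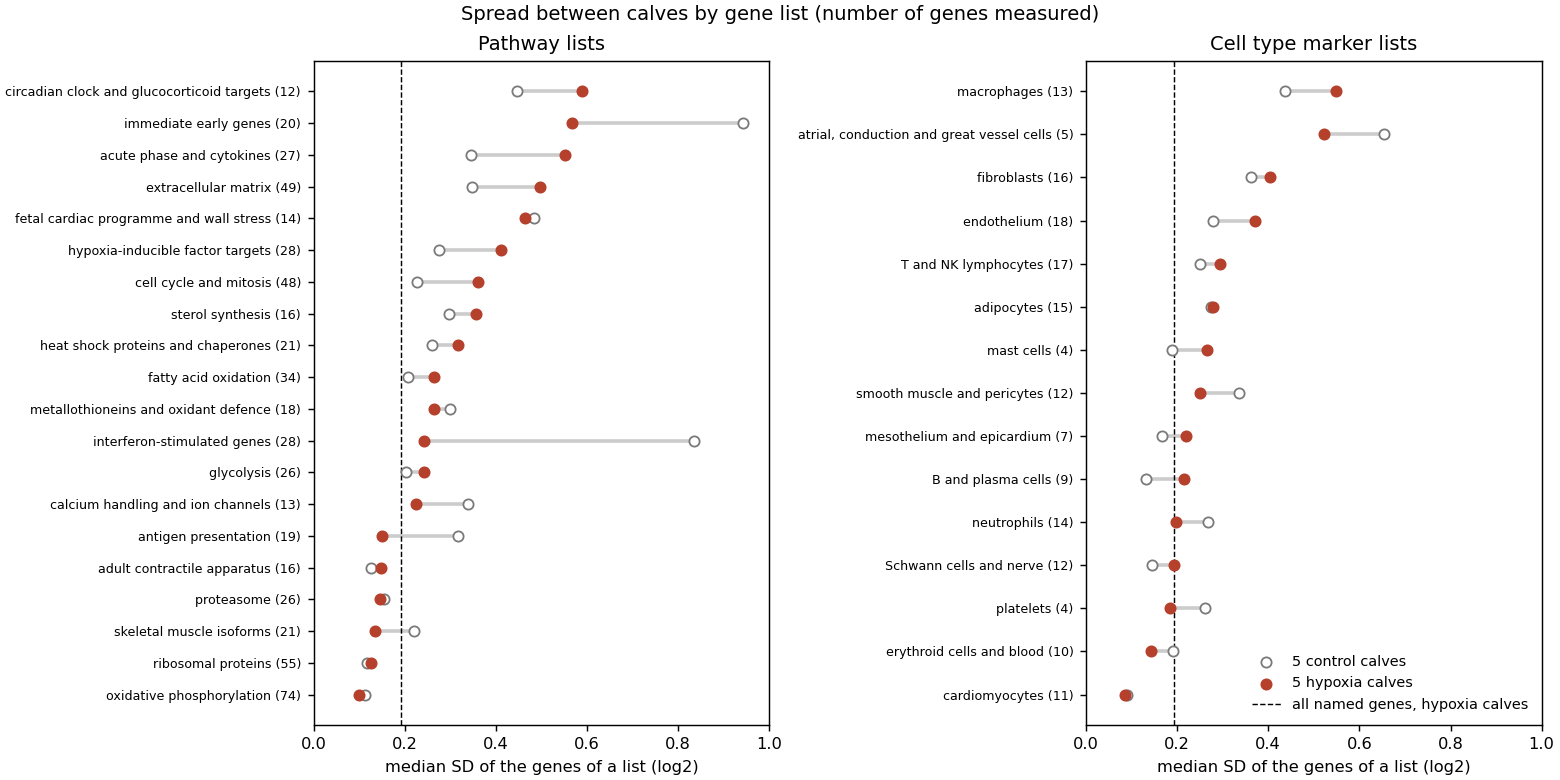
Each line is a gene list, with the number of genes measured in brackets, and the horizontal axis gives the median SD of its genes (log2) in hypoxia calves (red) and control calves (open). The dashed line marks 0.193, the median over all named genes in hypoxia calves. Acute phase, matrix, hypoxia-inducible factor and cell cycle lists lie to the right of their control values, interferon and immediate early lists to the left, and cardiomyocyte markers at 0.085.

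A second probe set, not used to choose a gene, was present for 27 of the 100 genes. It had the same highest calf in 17 of 27, 63.0%, against 40.4% of the 2913 genes with more than 1 probe set, and the same lowest calf in 16, 59.3%, against 41.7%. In 14 both were the same. Its median SD was 0.727 over the 27 genes and 0.19 over the 2913. The choice of genes depended on single calves. Of the 100, 69 stayed among the 100 most variable without calf 199, 76 without calf 204, 81 without calf 178, 91 without calf 173 and 93 without calf 192, and 29 stayed under each of these 5 omissions. Without calves 178 and 199 together 43 stayed. Those leaving the list then included PTX3, SAA3, TNFRSF6B, HP, TIMP1, LOXL4 and CHI3L1. A calf lay apart from the other 4 by Dixon's criterion in 12 of the 100 genes, against 6.68% of all genes.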

How the data were processed

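The deposited matrix held log2 values that the authors made with RMA, per the submitters' processing notes, with a row per probe set and a column per calf. RMA gives all arrays 1 distribution, which hides any change common to most transcripts. No software version is named in the sources used here. Of 24128 probe sets 112 were controls and 24016 were analysed, of which 13292 had 1 gene symbol in the platform annotation. The 86 with more symbols and the 10638 without were left unnamed, although of the 100 most variable probe sets 33 had no single symbol. The brightest probe set over all 10 arrays stood for a gene.

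SDs, gaps, calf orders and list counts were computed in Python 3.11.15. Spread was compared with limma 3.58.1 in R 4.3.3 on absolute deviations from the group mean (a Levene-type test, lmFit and eBayes, Benjamini-Hochberg over 24016 probe sets, adjusted p of 0.05), a procedure tested on simulated data and of low reach with 5 calves a group. Its low count therefore says little about how many genes differed. The number of arrays limits the precision, and no correlation over 5 calves was computed.

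Named are the 30 genes with the largest hypoxia SD, up to 5 per calf and direction, up to 4 per list with the largest SD, 8 cardiac and hypoxia genes, the genes most like ACTA1, NPPA, SPP1 and the most variable gene, and genes with the smallest SD, extreme SD ratios or the smallest p of spread. Genes beyond these rules (the collagens, CXCL2, GRO1, C3, VCAN, SERPINE2, BOLA-DRA, BOLA-DQB1, PHGDH, PSPH, MTHFD1L, SHMT1, TYMS, DEFB10, TAP and LAP) were picked with their values in view. The members and all lists were chosen with earlier results of these data known, and the list of serine and one-carbon enzymes was added last. Alternatives covered scaling, a filter on dim probe sets, the probe set per gene, the measure and test of spread, and leaving out calves. Figures were drawn with matplotlib 3.10.9.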

Additional observations from a re-analysis of the deposited data

Results flagged for a closer look

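Among 374 tests, 187 named genes in each group, and the list means, 36 values had 1 calf apart from the other 4 by Dixon's ratio of gap to range (above 0.71). Chance alone sets about 1 in 20 groups apart. Over all 9155 genes 1 calf lay apart in 6.685% in hypoxia calves and in 6.477% in controls. Many of the 187 genes were chosen for a large SD or an extreme SD ratio, so neither rate is a fair reference for them.

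Calf 199 stood above the other hypoxia calves in IGFBP3 (ratio 0.937), KERA (0.932), ERO1A (0.877), TNNT3 (0.821), SLC16A3 (0.802), GPD2 (0.778), UCHL1 (0.77), STC1 (0.761), NPPA (0.756), LMCD1 (0.738) and BHLHE40 (0.735). It also stood above them in the mean of hypoxia-inducible factor targets (0.956), of glycolysis genes (0.808) and of atrial, conduction and great vessel markers (0.802). It stood below them in BoLA (0.889) and in the potassium channel gene KCNJ2 (0.757).

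Calf 178 stood above the other hypoxia calves in ASZ1 (0.883), LTF (0.866), FDPS (0.844), HOXA5 (0.836), ICAM1 (0.791), HMGCS1 (0.79) and LYVE1 (0.75). FDPS and HMGCS1 encode enzymes of sterol synthesis, and HMGCS1 read 11.35 in calf 178 against 9.77 to 10.10 in the other hypoxia calves. Calf 204 stood below them in BOLA (0.736).

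In controls, calf 180 stood above the others in MX2 (0.862), ZNFX1 (0.767), IFI6 (0.761) and the mean of interferon-stimulated genes (0.748). Calf 177 stood above them in ASIP (0.928) and TAGLN (0.738), and calf 181 in GPD2 (0.857). Calf 181 stood below them in CKM (0.751). Calf 176 stood above them in PSMC5 (0.778) and in the mean of T and NK lymphocyte markers (0.909). Calf 195 stood above them in CYP51A1 (0.73) and in the mean of sterol synthesis genes (0.823).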

How the results depend on the processing

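The median SD of 0.193 in hypoxia calves was 0.153 by the median absolute deviation and 0.144 without calves 178 and 199 together (left out after the data were seen), which lowered the ratio to controls from 0.943 to 0.702. The 595 genes with an SD of at least 0.5 became 1303 over all probe sets and 292 without these 2 calves, and the 84 with an SD of at least 1 became 147 and 32. The rho of spread against level, 0.0943, turned to -0.127 with probe sets of a mean of at least 5, and was 0.195 with probe sets averaged, 0.302 over all probe sets and 0.0016 without both calves. Calf 199 was farthest in 20 of the 50 and 86 of the 200 most variable genes (26.6% of all genes). When 1 other calf was left out, it was farthest in 39 to 70 of 100. The share over all genes under these omissions is not given here, so the counts of 39 to 70 have no reference. The 1 probe set that passed the test of spread became 0 with dim probe sets removed, with median or squared deviations and without both calves, 3 by an F test, 2 with a variance trend, 10 at an adjusted p of 0.1 and 0 to 50 with 1 calf left out. The difference in typical deviation per calf and the second probe set count of 17 kept their side or size under the alternatives run. Of 187 named SDs, 4 moved beyond their error under each rescaling, 32 with probe sets averaged, 96 by the median absolute deviation, 29 without calf 178, 35 without calf 199 and 100 without both. Of 35 list counts, 17 moved by the median absolute deviation and 21 without both calves. No paired analysis was possible because hypoxia and control calves share no replicate numbers. Each value rests on 5 calves, 1 array and 1 tissue piece each, no batch is labelled, and dim genes near the floor have compressed spread.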

Other observations

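Genes of sterol synthesis varied with calf 178. Of 16 measured, 10 were highest in that calf (19.6% of all genes), and the list mean was 8.01 there and 7.46 to 7.70 in the remaining hypoxia calves. CYP51A1, a demethylase of the sterol path, read 9.49 in calf 178, 8.79 in calf 199, 8.49 in calf 173 and 8.03 and 7.92 in calves 192 and 204. Without calf 178, 0 of the 16 genes had an SD of 0.5, against 2 with all 5 calves. ICAM1, an adhesion molecule of activated endothelium, read 8.89 in calf 178 and 6.08 to 6.67 in the remaining 4 hypoxia calves. VCAM1, another such molecule, read 9.09 in calf 178 and 7.30 to 8.29 in the others.

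Chaperones were highest in calf 199. Their list mean was 11.43 there and 10.84 to 11.02 in the remaining hypoxia calves. HSPA1A, an inducible heat shock protein, read 12.05 in calf 199, 11.51 in calf 204, 11.24 in calf 192, 10.14 in calf 173 and 10.05 in calf 178. Its probe sets disagreed. Dimmer ones also read highest in calf 199, at 11.54 and 11.37. Another read lowest there, at 5.51 against 5.74 to 6.50, and a further one read 9.68 in calf 173 and 9.09 in calf 199. BAG3, a partner of HSPA1A in heart muscle, read 12.58 in calf 199 and 10.98 to 11.50 in the others.

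Globin readings varied among calves of both groups. HBB, the beta globin of red cells, read 7.72 and 7.58 in hypoxia calves 199 and 178 and 4.83 to 6.50 in the other 3, while controls ranged from 4.34 to 8.40.

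Some wide control SDs rest on 1 calf each: control calf 180 for MX2 (5.96 against 2.92 to 3.34), control calf 177 for ACTA1 and for ASIP, the agouti signalling protein (7.53 against 4.70 to 4.90).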
